A study of Mus musculus with 6 samples.

Results

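Nfil3 and 9 core genes of the circadian clock (Dbp, Tef, Arntl, Clock, Per1, Per2, Per3, Cry1 and Nr1d1) were followed in the thyroid of mice with and without the anion exchanger pendrin. All probe sets that the array's annotation assigned to 1 of these 10 genes alone were taken, which gave 24 of the 45101 probe sets on the array. The set was chosen with results in view: Nfil3 had been seen to read higher on every knockout array, and the clock genes were added to set that difference beside the genes that mark clock phase. The Nfil3 difference is therefore described here and not tested.

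RNA came from microdissected thyroid of mice at postnatal day 15. The controls were 3 samples heterozygous for Slc26a4, the pendrin gene (heterozygous 1, 3 and 5), and they were compared with 3 Slc26a4 knockout samples (knockout 2, 4 and 6). Each was hybridised to 1 Affymetrix mouse array, and values are array signals on a linear scale. All 6 samples thus carry a mutant Slc26a4 allele, and no wild-type thyroid was among them. Neither the hour of dissection nor the sex of the mice, the deleted part of the gene or how many mice gave each RNA is stated in the labels. The p-values below therefore reflect only the spread between these 6 samples, and that spread may be technical.

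The clock of mammalian cells is a loop of transcription factors. CLOCK and BMAL1 (the product of Arntl) activate genes that carry E-boxes, among them the repressors Per and Cry, the nuclear receptor Nr1d1 and the output factor Dbp. Nr1d1 in turn represses Arntl and Nfil3 through elements called RREs, where ROR receptors activate. NFIL3 and the PAR bZIP factors DBP and TEF bind the same D-box sequence, NFIL3 as a repressor and DBP and TEF as activators. In peripheral tissues Dbp and Nr1d1 are therefore at their peak when Arntl is near its trough, which makes them useful markers of phase.

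The DNA elements of this loop can be read in the promoters of several members. RefSeq promoter windows on GRCm38.p6, 250 bases before to 50 after a start, were held for 9 of the 10 genes in 14 windows. Both strands were searched for the E-box CACGTG, the related E′-box CACGTT, the D-box as TTATGTAA or TTACGTAA, and the core of the RRE as TAGGTCA or TGGGTCA. The E-box was found in windows of Cry1, Per1 and Tef (4 of 14 windows, against 7.15% of all 32851), the E′-box in those of Cry1 and Nr1d1 (2 windows, against 4.69%), the D-box in Per3 alone (1 window, against 1.06%) and the RRE core in Nfil3 and Arntl (2 windows, against 6.45%). A match describes these letters and is not evidence of binding. The stretches below show an example of each kind, with the matches in capitals and each on the strand of its gene. Nfil3 (chr13:52981040-52981289, minus strand) has the RRE core on the opposite strand close to its start, and the Arntl stretch (chr7:113207529-113207558, plus strand) lies just after a start. Per3 (chr4:151044666-151044915, minus strand) has the D-box in 2 copies. Cry1 (chr10:85185055-85185304, minus strand) has an E′-box followed by an E-box.
Nfil3: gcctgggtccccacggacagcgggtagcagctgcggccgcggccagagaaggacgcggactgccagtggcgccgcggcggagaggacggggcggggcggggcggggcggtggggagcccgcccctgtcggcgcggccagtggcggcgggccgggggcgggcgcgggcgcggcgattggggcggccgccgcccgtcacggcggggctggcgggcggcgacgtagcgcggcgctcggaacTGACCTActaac
Arntl: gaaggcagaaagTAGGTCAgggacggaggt
Per3: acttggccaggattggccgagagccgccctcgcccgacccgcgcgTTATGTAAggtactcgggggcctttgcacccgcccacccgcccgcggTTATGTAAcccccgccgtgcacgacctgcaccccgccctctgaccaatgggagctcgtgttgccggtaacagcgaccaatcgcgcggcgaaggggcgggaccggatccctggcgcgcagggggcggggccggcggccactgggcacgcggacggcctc
Cry1: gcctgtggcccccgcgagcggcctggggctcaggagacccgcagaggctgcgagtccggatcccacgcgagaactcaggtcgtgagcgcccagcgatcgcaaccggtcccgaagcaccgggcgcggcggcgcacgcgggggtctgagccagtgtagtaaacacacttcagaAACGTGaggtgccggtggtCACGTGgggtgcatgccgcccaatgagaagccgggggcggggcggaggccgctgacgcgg

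Between 67.5% and 73.8% of the probe sets of an array were brighter than 22.9, the brightest value of 27 control probe sets for bacterial transcripts, which is used as background. The probe set of Slc26a4 read under this background on all 6 arrays, at 2.10 to 15.7, so it does not check the genotypes. Of the 24 member probe sets, 20 were above background on all 6 arrays and 2 on none, and 19 passed the filter on dim probe sets and were tested. Each of the 10 genes had a tested probe set, and the one of the highest mean represents it.

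Nfil3, a bZIP repressor of the clock output that also acts in immune cells, was higher on each knockout array than on any heterozygous array. The single probe set for it, 1418932_at, gave signals of 179.7, 177.3 and 240.9 on heterozygous 1, 3 and 5. On knockout 2, 4 and 6 it read 280.0, 291.0 and 405.7. The 2 groups did not overlap, and within each group 1 array stood above the others, heterozygous 5 and knockout 6. The group means were 199.3 ± 36.1 and 325.5 ± 69.6 (SD, n = 3 each), a ratio of 1.63 and a difference of 0.66 on the log2(signal + 16.7) scale. These are the values by which the gene was chosen.

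**Figure D1:**
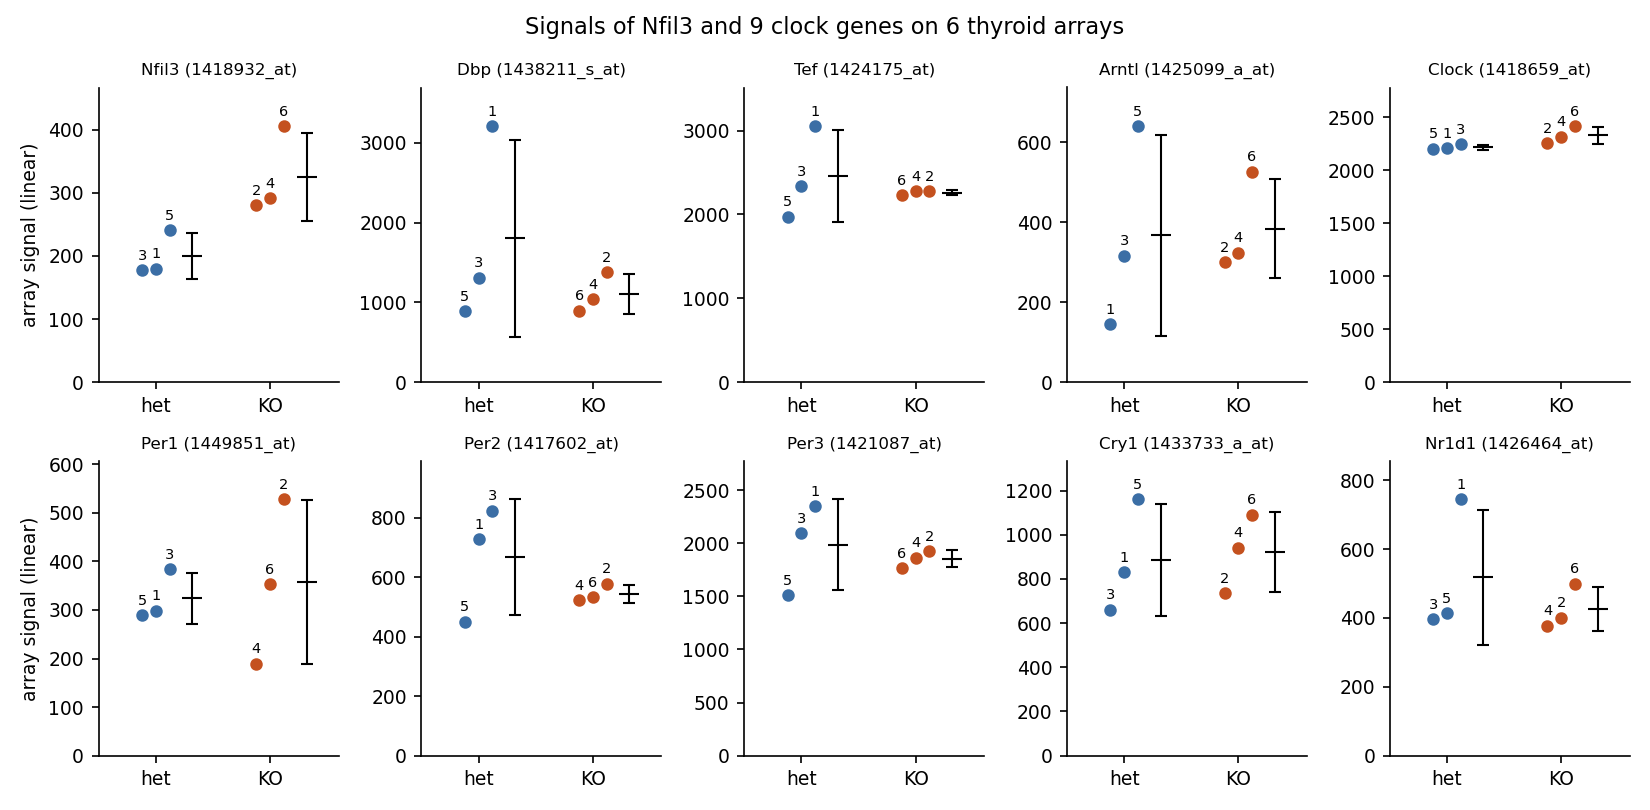
Array signal (linear, y axis) of the representative probe set of each of the 10 genes in heterozygous (het, blue) and knockout (KO, orange) thyroid. Each point is 1 array marked with its sample number, and the bar beside the points is the mean ± SD (n = 3). Nfil3 and Clock are higher on all 3 knockout arrays, Clock by a small step, while the heterozygous arrays 1 and 5 lie at opposite ends for Dbp, Tef and Arntl.

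Among the other 9 genes no difference between genotypes passed. Of their 18 tested probe sets, 9 had a higher and 9 a lower knockout mean, 0 were called by limma at an adjusted p of 0.05 and 0 had an unadjusted p under 0.05. Over all 27022 probe sets tested, limma called 0%, and 0.511% (138) had an unadjusted p under 0.05. Of the 9 representative probe sets 4 had a higher and 5 a lower knockout mean, with a median log2 difference of -0.08, against -0.0021 over all probe sets tested. The intervals of Dbp, Arntl, Per1, Per2 and Nr1d1 were wide enough to hold differences as large in size as that of Nfil3.

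**Figure D2:**
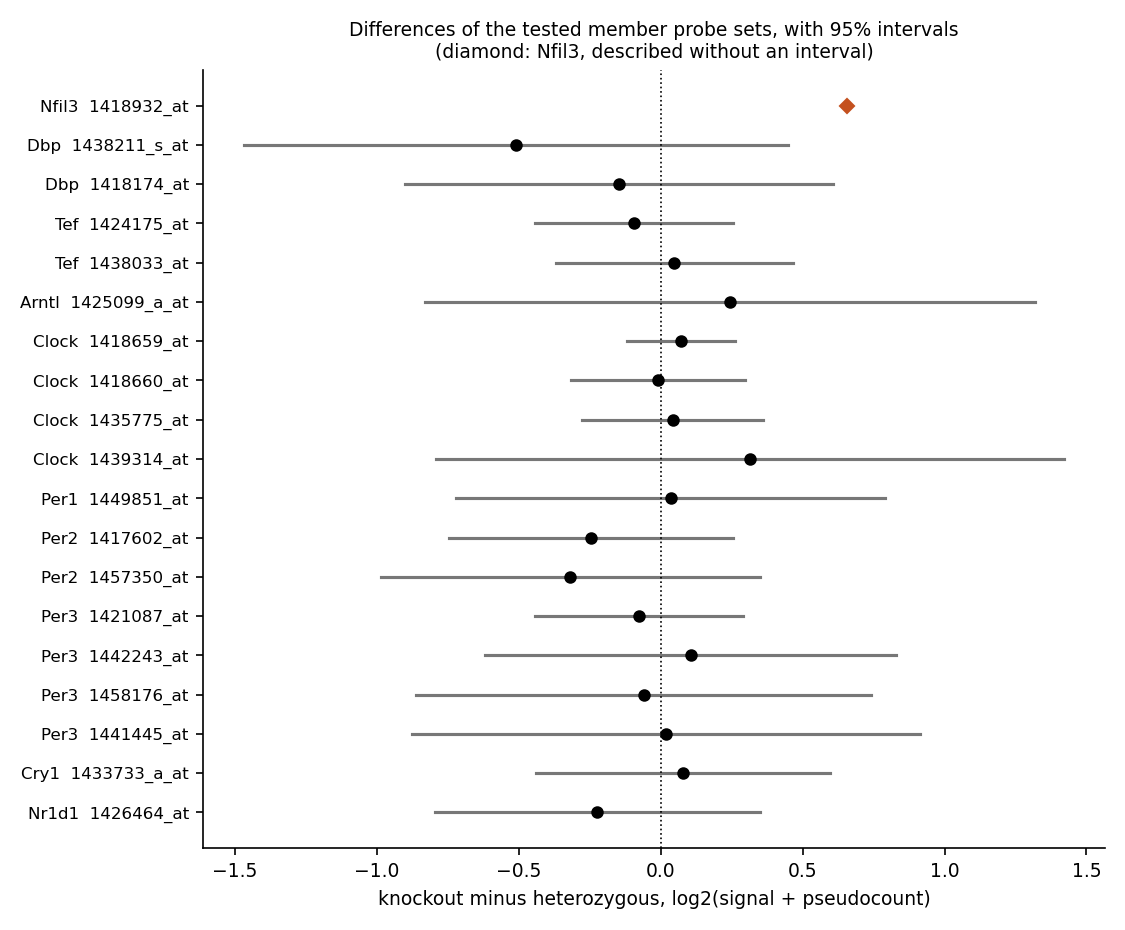
Knockout minus heterozygous difference on the log2(signal + 16.7) scale (x axis) for the 19 tested member probe sets (y axis). Lines are 95% intervals from limma over 3 arrays against 3, and the diamond is Nfil3, given without an interval because it was chosen by this difference. Every interval drawn spans 0, and those of Arntl (-0.83 to 1.32) and the brighter Dbp probe set (-1.47 to 0.45) are among the widest.

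Dbp, the PAR bZIP activator that opposes NFIL3 at D-boxes, varied far more between heterozygous arrays than between genotypes. The brighter of its probe sets, 1438211_s_at, gave 3210 on heterozygous 1, 1309 on heterozygous 3 and 886.2 on heterozygous 5. On knockout 2, 4 and 6 it read 1377, 1039.9 and 893.2. All 3 knockout values lay inside the heterozygous range, and heterozygous 1 stood far above the other arrays. The log2 difference was -0.51 ± 0.42 (SE), with an interval of -1.47 to 0.45 (limma, adjusted p = 1.0). Without heterozygous 1 it was 0.011. The dimmer probe set, 1418174_at, was also highest on heterozygous 1 (683.2) and lowest on heterozygous 5 (248.7), with knockout arrays at 365.8 to 466.5 and a log2 difference of -0.15.

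Tef, the other PAR bZIP factor of the set, showed the same order of heterozygous arrays with a smaller span. By probe set 1424175_at it read 3056, 2337 and 1974 on heterozygous 1, 3 and 5 and 2280.1, 2275 and 2231 on knockout 2, 4 and 6. The knockout arrays were nearly level, inside the heterozygous range. Knockout minus heterozygous was -0.09 on the log2 scale (limma, adjusted p = 1.0), with an interval of -0.44 to 0.25, and it was 0.074 without heterozygous 1. A further tested probe set, 1438033_at, ran from 405.5 to 605.9 with its highest value on knockout 6 and gave a log2 difference of 0.05. A dim probe set, 1450184_s_at, read 30.4 to 55.8 and was too dim to be tested.

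Arntl, which encodes the activator BMAL1, ran opposite to Dbp. The signal of 1425099_a_at was 144.7 on heterozygous 1, 316.7 on heterozygous 3 and 641.0 on heterozygous 5. On knockout 2, 4 and 6 it read 300.5, 324.2 and 527.0. The lowest and the highest of the 6 values were both heterozygous, and the groups overlapped. Between genotypes Arntl differed by 0.24 ± 0.47 (SE) on the log2 scale, with an interval of -0.83 to 1.32 (limma, adjusted p = 1.0), and it was -0.27 without heterozygous 1. Probe set 1457740_at of the same gene read 5.68 to 25.3, above background on heterozygous 5 alone, and was not tested.

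Clock, the partner of BMAL1, is known to cycle little in many tissues, and its signal here was the steadiest of the set. Probe set 1418659_at read 2207, 2247 and 2203 on heterozygous 1, 3 and 5 and 2258, 2317 and 2419.8 on knockout 2, 4 and 6. The groups did not overlap, with the knockout arrays 0.07 higher on the log2 scale (interval -0.12 to 0.26), which was not a call (limma, adjusted p = 1.0). It was the 1 probe set of the 18 whose knockout arrays were all higher, and for 0 of the 18 were they all lower, where 1.64% of all probe sets tested had all knockout arrays higher, 2.04% all lower and 3.68% either. The other tested probe sets of Clock overlapped between groups, with log2 differences of -0.01 (1418660_at), 0.04 (1435775_at) and 0.31 (1439314_at, which read 27.4 to 134.5).

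The Period genes, whose proteins repress CLOCK and BMAL1, did not all share an order of arrays. Per1, which also responds to glucocorticoids and cAMP, read 298.5, 383.7 and 289.5 on heterozygous 1, 3 and 5 and 527.5, 189.5 and 353.3 on knockout 2, 4 and 6 (1449851_at). Its highest and its lowest value were both knockout arrays. Its genotypes differed by 0.03 on the log2 scale (limma, adjusted p = 1.0), with an interval of -0.72 to 0.79. It fell on either side of 0 when arrays were left out, at -0.29 without knockout 2 and 0.41 without knockout 4.

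Per2 read 728.3, 824.8 and 451.1 on heterozygous 1, 3 and 5 and 578.0, 522.1 and 532.8 on knockout 2, 4 and 6 (1417602_at). The knockout arrays lay within the heterozygous range, below heterozygous 1 and 3 and above heterozygous 5. This gave a log2 difference of -0.25 (limma, adjusted p = 1.0), with an interval of -0.74 to 0.25, and a dimmer tested probe set, 1457350_at, gave -0.32. Another, 1417603_at, was under background on knockout 2 and 6 (3.12 and 4.83), read 24.7 to 28.1 on heterozygous arrays and was highest on knockout 4 (30.04), and was too dim to be tested.

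Per3 read 2346, 2096 and 1513 on heterozygous 1, 3 and 5 and 1924, 1866 and 1766 on knockout 2, 4 and 6 by probe set 1421087_at. As for Per2, heterozygous 1 and 3 were the highest arrays and heterozygous 5 the lowest. Between genotypes the log2 difference was -0.08 (limma, adjusted p = 1.0), with an interval of -0.44 to 0.29, and it was 0.055 without heterozygous 1. The other probe sets of Per3 did not follow it. Those tested, 1442243_at, 1458176_at and 1441445_at, each had their highest value on knockout 6 (295.8, 126.2 and 135.6), and 1421086_at and 1460662_at read under background on all 6 arrays, at 1.52 to 6.28.

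Cry1, the cryptochrome repressor, followed Arntl in its high arrays. Probe set 1433733_a_at read 830.6, 661.4 and 1160.1 on heterozygous 1, 3 and 5 and 734.3, 940.7 and 1092 on knockout 2, 4 and 6. Heterozygous 5 and knockout 6 were the highest for both genes, but the lowest Cry1 value was on heterozygous 3. Knockout minus heterozygous was 0.08 on the log2 scale (limma, adjusted p = 1.0), with an interval of -0.44 to 0.60. It was -0.11 without heterozygous 3 and -0.050 without knockout 6.

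Nr1d1, which encodes the repressor REV-ERBα, read 744.5, 396.1 and 414.7 on heterozygous 1, 3 and 5 and 401.4, 378.0 and 499.1 on knockout 2, 4 and 6 (1426464_at). Heterozygous 1 stood above the other 5 arrays, as it did for Dbp. The log2 difference was -0.22 ± 0.25 (SE), with an interval of -0.80 to 0.35 (limma, adjusted p = 1.0), and it was 0.060 without heterozygous 1.

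Some of the members shared an order of arrays that is not the order of genotypes, while Per1, Clock, Nr1d1 and Nfil3 did not follow it. From high to low, Dbp ran heterozygous 1, knockout 2, heterozygous 3, knockout 4, knockout 6, heterozygous 5, and Arntl ran in exactly the reverse order. The highest heterozygous signal of Dbp was 3.62 times the lowest, and among the knockout arrays the ratio was 1.54. For Arntl the ratios were 4.43 and 1.75. The heterozygous range was the wider one for 7 of the 10 representative probe sets, and for Nfil3, Clock and Per1 the knockout range was wider. The difference in spread was not tested, and the share of all probe sets with a wider heterozygous range was not counted.

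Across the 6 arrays, Arntl was set against 8 other members on the log2 scale, with exact two-sided permutation tests adjusted over the 8 relations. Nfil3 was left out because its groups do not overlap. Each gene was read by its representative probe set alone. The other tested probe sets, of which those of Tef and Per3 were highest on knockout 6, were not set against Arntl. With Dbp, Pearson's r was -0.94 (exact permutation p = 0.00139, adjusted 0.0111) and Spearman's rho was -1.0 (exact permutation p = 0.00278, adjusted 0.0222, the smallest p that 6 arrays allow for rho). With Tef r was -0.94 and rho -0.94 (exact permutation p = 0.00417 and 0.0167, adjusted 0.0167 and 0.0444), and with Per3 r was -0.94 and rho -0.94 (exact permutation p = 0.0125 and 0.0167, adjusted 0.0333 and 0.0444). Per2 (r -0.70, rho -0.77), Nr1d1 (r -0.60, rho -0.14), Cry1 (r 0.63, rho 0.77), Clock (r 0.36, rho 0.09) and Per1 (r -0.02, rho -0.43) did not pass. Without the arrays farthest from the median of Arntl, heterozygous 1 and 5, r over the other 4 arrays was -0.85 for Dbp, -0.75 for Tef and -0.72 for Per3, and for Nr1d1 it turned to 0.95. It was 0.94 for Clock, 0.80 for Cry1, -0.39 for Per2 and -0.06 for Per1, so values over 4 arrays can move widely. The members were chosen with earlier results of these data known, so these p-values describe the 6 arrays and are not independent support. How many of all probe sets tested relate to Arntl as closely was not counted. These relations therefore cannot be called particular to clock genes. The labels do not say that the arrays come from separate animals.

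Nfil3 shared this order in part. Among the knockout arrays it ran as Arntl did, 6 above 4 above 2, and among the heterozygous arrays both were highest on heterozygous 5, but Nfil3 was lowest on heterozygous 3 and Arntl on heterozygous 1. Between heterozygous 3 and heterozygous 1, a pair chosen after its values were seen, Arntl differed with a ratio of 2.19 and Dbp with 0.408, while the ratio for Nfil3 was 0.986. Between heterozygous 5 and heterozygous 1 the ratios were 4.43 for Arntl, 0.276 for Dbp and 1.34 for Nfil3. Since Nfil3 was chosen because its groups do not overlap, its level in knockout against heterozygous arrays at a like level of Arntl is no evidence on clock phase, and whether phase has a part in the Nfil3 values was not tested.

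**Figure D3:**
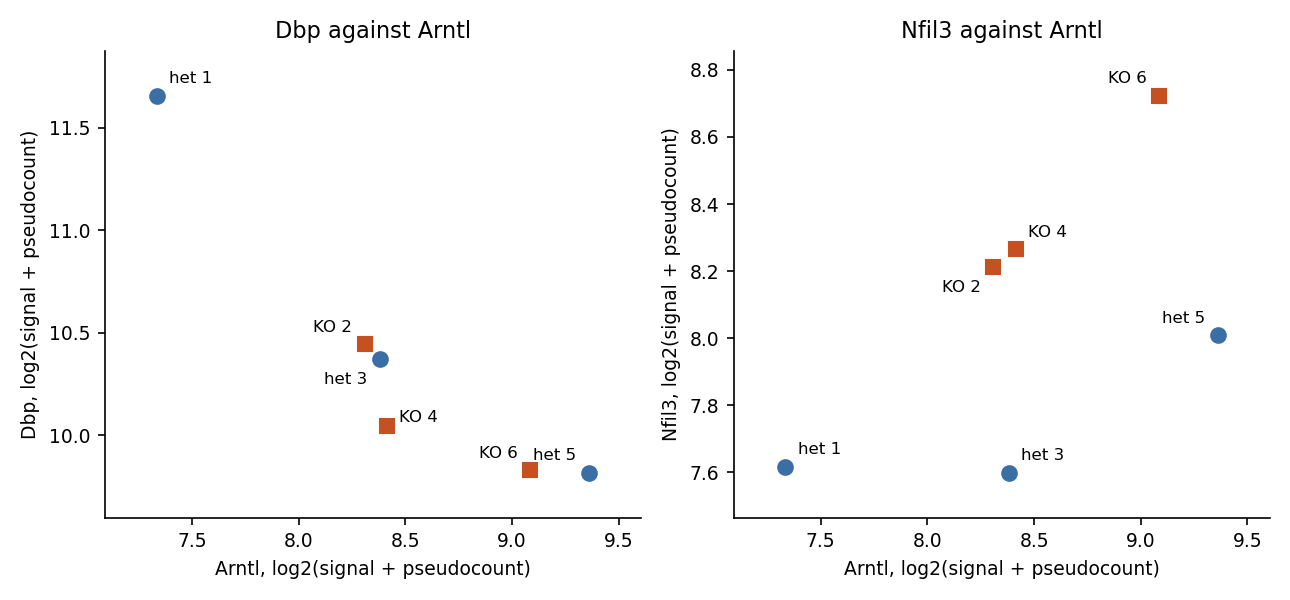
Dbp (left) and Nfil3 (right) against Arntl on the log2(signal + 16.7) scale, 1 point per array, with circles for heterozygous (het) and squares for knockout (KO) thyroid. Dbp falls as Arntl rises over both genotypes (rho = -1.0, 6 arrays), and in the right panel the gap between the genotypes is the one by which Nfil3 was chosen.

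Clock genes outside the set also showed no call between genotypes. Of 20 further clock genes listed, 18 had a probe set and 15 were tested, and 0 were called in either direction, with 6 higher, 9 lower and a median log2 difference of -0.07 (limma). Those with the smallest p were the RRE activator Rora (1455165_at, log2 difference -0.14), the kinase Csnk1d that phosphorylates PER proteins (1437690_x_at, -0.11) and the ubiquitin ligase subunit Btrc (1457305_at, 0.15), none of which passed (limma, adjusted p = 1.0 each). Npas2, a relative of Clock, and Nr1d2, the relative of Nr1d1, were picked after their values were seen. Npas2 read 409.6, 512.7 and 874.2 on heterozygous 1, 3 and 5 and 492.3, 504.7 and 584.1 on knockout 2, 4 and 6 (1421037_at). Like Arntl, it was lowest on heterozygous 1 and highest on heterozygous 5. Nr1d2 read 5154, 4745 and 3684 and then 4491, 4129 and 3773 (1416958_at), and so had its highest value on heterozygous 1 and its lowest on heterozygous 5. Others did not share these ends. Usp2 and Ciart, both highest on heterozygous 1, were lowest on heterozygous 3 (1032 and 31.1), and Hlf was lowest on knockout 2 (614.4).

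The clock genes were also summarised per array as the mean log2 deviation of the RRE-driven genes (Arntl, Npas2, Clock and Cry1, without Nfil3) minus that of 10 E-box and D-box driven genes (Dbp, Tef, Hlf, Per1, Per2, Per3, Nr1d1, Nr1d2, Ciart and Usp2). Cry1, also an E-box gene, was placed with the former for the RREs known within its introns, outside the window searched. This contrast was -0.82, -0.12 and 0.68 on heterozygous 1, 3 and 5 and -0.21, 0.16 and 0.30 on knockout 2, 4 and 6. The knockout arrays lay within the heterozygous range. The means were -0.08 ± 0.75 and 0.08 ± 0.26 (SD, n = 3 each), a difference of 0.17, which is smaller than the spread within the heterozygous group. It was -0.20 without heterozygous 1 and 0.55 without heterozygous 5. With Nfil3 among the RRE-driven genes the difference was 0.28, with -0.057 without heterozygous 1 and 0.64 without heterozygous 5. No test was made of this contrast, since its genes were chosen with results known.

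**Figure D4:**
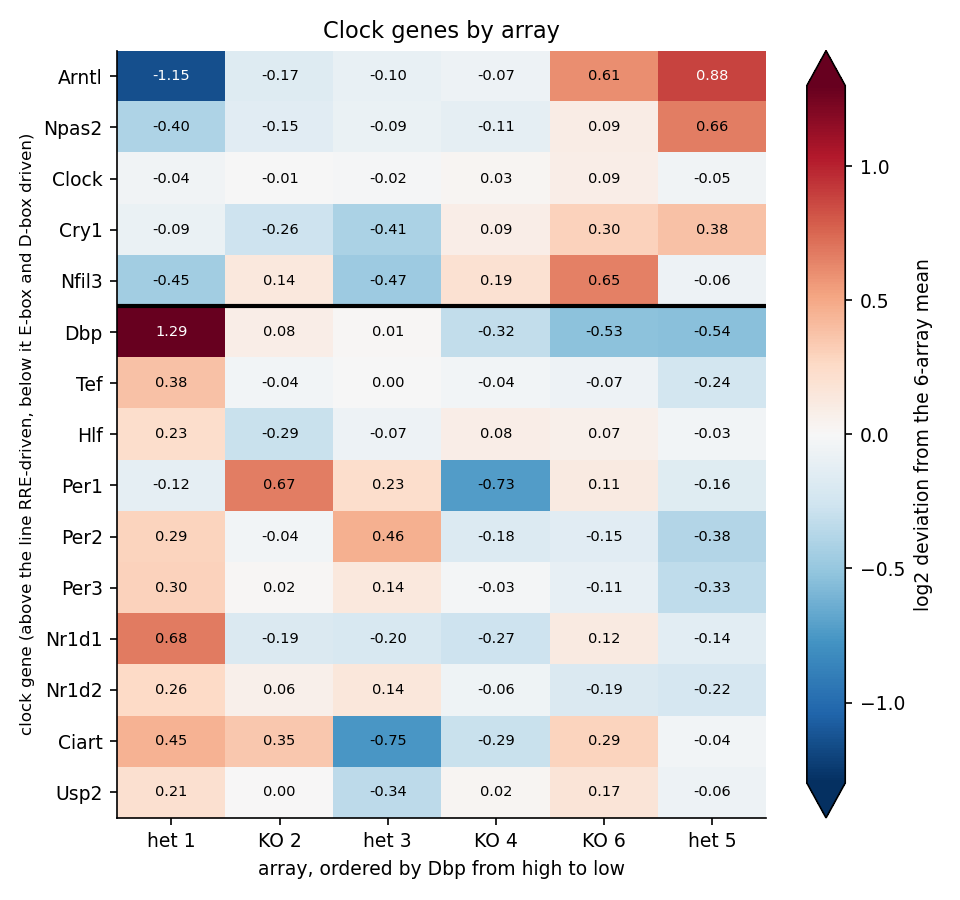
Log2 deviation of 15 clock genes (rows) from their mean over the 6 arrays (columns, ordered by Dbp from high to low; het, heterozygous; KO, knockout), with red above and blue below the mean. Genes above the line are RRE-driven and those below it E-box and D-box driven. Arntl and Npas2 turn from blue on heterozygous 1 to red on heterozygous 5, Dbp, Tef, Per3 and Nr1d2 do the reverse, and Nfil3 is above its mean on the 3 knockout arrays alone.

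Markers of tissues beside the thyroid follicle were read on all arrays, and some of their sums varied along with Dbp. In whole tissue, fewer cells of a type and less RNA per cell cannot be told apart. The summed signal of 10 thyrocyte markers such as Tg, Pax8 and Slc26a7 was between 37510 and 45688 on heterozygous arrays and between 36617 and 43749 on knockout arrays, with all 10 above background on at least 1 array. From high to low it ran heterozygous 1, knockout 2, heterozygous 3, knockout 4, heterozygous 5, knockout 6, which is the order of Dbp except for its last 2 arrays. The sum of 10 skeletal muscle markers was 31792, 22824 and 16988 on heterozygous 1, 3 and 5 and 32140.5, 16172 and 6506 on knockout 2, 4 and 6, so that it too was high on heterozygous 1 and knockout 2. The highest sum was 1.25 times the lowest for thyrocytes and 4.94 times for muscle, beside 3.62 times for the brighter Dbp probe set. Between genotypes 2 of the 10 muscle genes had a higher and 8 a lower knockout mean, with a median log2 difference of -0.65 and 0 called (limma). Brown fat markers, 9 genes, summed to 46691 to 57845 on heterozygous and 44647 to 58712 on knockout arrays, highest on knockout 6, knockout 4 and heterozygous 5. Among them Elovl3, a fatty acid elongase, was higher on each knockout array (285.1, 229.4 and 270.8) than on heterozygous 1, 3 and 5 (213.9, 140.7 and 93.9), with a log2 difference of 0.80 (limma, adjusted p = 1.0). Elovl3 was the 1 of the 9 with all knockout arrays higher, a pattern that 1.64% of all probe sets tested had. The sum of 4 parathyroid genes was low on heterozygous 1 (1001) and knockout 6 (3408) and 16254 to 17227 on the other arrays, and so did not follow Dbp. That of 10 cartilage genes, 3 of them under background on all arrays, ran from 4448 on knockout 6 to 6163 on knockout 2. Its order of arrays was that of the muscle sum. Sox9 (2592 to 4046) and Col9a1 (1174 to 2133) made up most of the cartilage sum, and 1 of the 10 genes was highest on knockout 2. The part of tissue makeup in the order of Dbp and Arntl was not tested.

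Immune cell markers were set beside Nfil3, which is needed for natural killer cells to develop. Of 9 natural killer and innate lymphoid genes, 5 (Ncr1, Eomes, Tbx21, Klrk1 and Il2rb) read under background on all 6 arrays. The summed signal of the 9 was 399.3 to 432.1 on heterozygous arrays and 439.6 to 1118 on knockout arrays, so the groups did not overlap, with the highest on knockout 4 and the other 2 knockout arrays at 439.6 and 449.0. Gene by gene, with dim genes included, 0 of the 9 were higher on all knockout arrays and 1 was lower on all. Over all probe sets tested, 1.64% had all knockout arrays higher and 2.04% all lower, so counts among 9 genes say little. Perforin (Prf1), the 1 gene bright enough to be tested, overlapped between groups and was lowest on knockout 4 (254.6; log2 difference -0.02). On the other arrays Prf1 read 301.9 to 359.3 and made up most of the sum. Of 13 thymus and T cell genes, all had their highest value on knockout 4, where they summed to 4826, against 262.5 to 308.8 on heterozygous arrays and 264.2 and 296.2 on knockout 2 and 6. The 5 of these genes that were tested all had a higher knockout mean, but Cd3g, Dntt, Cd3d and Cd8a passed the filter only through knockout 4. Their higher knockout mean was thus fixed by that 1 array (Cd8a read 102.1 there and 30.7 to 46.6 on the others). With dim genes included, 3 of the 13 genes were higher on all knockout arrays and 0 lower on all. Of all probe sets tested, 1.64% and 2.04% were so. Since all 13 were highest on knockout 4, these counts say little. Cd2, an adhesion molecule of T and natural killer cells, was the 1 tested gene of its list with all knockout arrays higher. It read 80.6, 125.2 and 85.3 on knockout 2, 4 and 6 and 67.5, 55.7 and 52.6 on heterozygous 1, 3 and 5, with a log2 difference of 0.58 (limma, adjusted p = 1.0). The sum of 10 macrophage genes was 23125 to 26311 on heterozygous and 22969 to 26215 on knockout arrays, with 8 of 10 genes higher in the mean, 2 lower and 0 called. Of these Ctss, a lysosomal protease, read 2273, 2177 and 1813 on heterozygous 1, 3 and 5 and 2343, 2578 and 2505 on knockout 2, 4 and 6, without overlap (log2 difference 0.25; limma, adjusted p = 1.0). Ctss was the 1 of the 10 without overlap, as were 3.68% of all probe sets tested. The part of immune cells in the Nfil3 values was not tested.

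**Figure D5:**
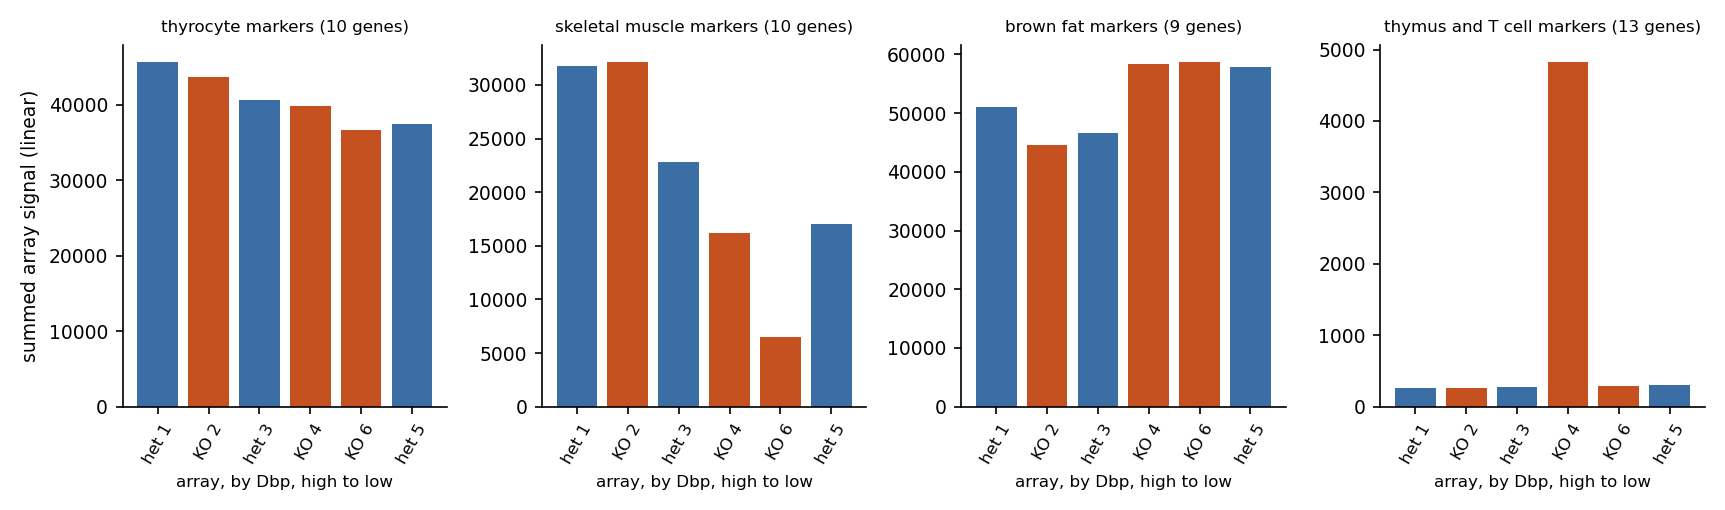
Summed array signal (linear, y axis) of 4 lists of cell type markers on the 6 arrays (x axis, ordered by Dbp from high to low), with heterozygous (het) in blue and knockout (KO) in orange. Thyrocyte and muscle markers are higher on the arrays where Dbp is high, going from 45688 to 37510 and from 31792 to 16988 between heterozygous 1 and heterozygous 5, with their lowest values on knockout 6, and thymus markers are high on knockout 4 alone.

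Neither the 5 genes most like Dbp nor the 5 most like Nfil3 over the 6 arrays were in the clock lists. Those lists hold few of the probe sets compared, so this says little. The pattern of Nfil3 includes the gap by which it was chosen, and 5 genes were most like it. By Pearson's r on the log2 scale, they were Kcna1, a voltage-gated potassium channel (1437230_at, r = 0.99), Acbd4, an acyl-CoA binding protein (1449626_s_at, 0.98), Trmt6, a subunit of a tRNA methyltransferase (1428754_at, 0.98), the adhesion receptor Adgrg6 (1437408_at, 0.98) and Slc25a53, a mitochondrial carrier (1453040_at, 0.97). Kcna1 read 154.8, 162.3 and 185.0 on heterozygous 1, 3 and 5 and 215.1, 216.2 and 261.8 on knockout 2, 4 and 6, a smaller step than that of Nfil3. Of 23253 probe sets compared, 25 had an r above 0.95. Among the members, r with Nfil3 was 0.85 for Clock, 0.58 for Arntl, 0.57 for Cry1, -0.65 for Dbp and -0.69 for Per2. Those most like Dbp were Tspan33, E2f4, Dynll1, Kcnma1 and Gng4 (r = 0.99 each), and 47 of 23252 probe sets had an r above 0.95. Of these Kcnma1, a calcium-activated potassium channel, had the wide span of Dbp, at 559.0 on heterozygous 1, 129.2 and 98.5 on heterozygous 3 and 5, and 186.5, 110.6 and 87.0 on knockout 2, 4 and 6. With 6 arrays, and genes picked out of so many, these values are descriptions.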

How the data were processed

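Thyroid RNA was amplified by NuGEN's Ovation method, per the labels' protocols. The authors deposited linear intensities, 1 per probe set and array, made with GCOS, the array maker's software, per the submitters' processing notes (its version and settings are not stated there). The mean after trimming 2% at each end was 500.002 on every array, so that scaling was kept. No 2 arrays were identical (0 pairs).

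Gene names came from the platform's annotation, which gave 1 symbol for 34958 of 45101 probe sets, several for 932 and none for 9211. Log2(signal + 16.7) values, 16.7 being the 25th percentile of all values, were fitted with limma 3.58.1 in R 4.3.3 (lmFit, eBayes with trend). For dim genes the added constant makes differences too small. After removing 64 controls, the 27022 probe sets above the 40th percentile (a signal of 43.5) were tested, and p-values were adjusted by Benjamini-Hochberg over all of them. The fit was tested on simulated data. The members and lists were chosen with earlier results of these data known. Beside the members, the text names the 3 genes of smallest p of the further clock, glucocorticoid and temperature lists and the 5 genes most like Nfil3 and Dbp. Npas2, Nr1d2, Usp2, Ciart, Hlf, Cd2, Cd3g, Dntt, Cd3d, Cd8a, Prf1, Ctss and Elovl3 were named after their values were seen. The number of arrays limits the precision. Promoters are from RefSeq (GRCm38.p6).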

Additional observations from a re-analysis of the deposited data

How the results depend on the processing

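Cyclic loess or quantile normalization, a pseudocount of 4.17 or 66.6, testing all probe sets or those above the 60th percentile, eBayes without trend and robust, array weights, each array left out, and the Arntl level as a covariate (added after seeing the data) all gave 0 calls over all probe sets and 0 among the members. With the mean of a gene's tested probe sets added, the Nfil3 difference ranged from 0.50 to 0.79 over 17 alternatives; its sign when an array is left out was fixed by the choice of the gene. With each array left out the difference crossed 0 for Dbp (-0.91 to 0.011), Tef (-0.24 to 0.074), Arntl (-0.27 to 0.75), Per1 (-0.29 to 0.41), Per3 (-0.26 to 0.055), Cry1 (-0.11 to 0.29) and Nr1d1 (-0.38 to 0.060). For Dbp, Tef, Arntl, Per3 and Nr1d1 that was the fit without heterozygous 1. Per1 also fell to -0.36 with array weights; the cause was not tested. Clock (0.04 to 0.10) and Per2 (-0.50 to -0.07) kept their direction in all 17. The contrast of RRE-driven with E-box and D-box driven genes, Nfil3 included, ran from -0.057 to 0.64 with each array left out, and from -0.20 to 0.55 without Nfil3. No paired analysis was possible because the groups share no sample number. With 3 arrays a group, the intervals limit what can be seen.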

Other observations

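Genes that respond to glucocorticoids, which can set peripheral clocks, showed no call between genotypes. All 13 listed genes were tested, with 8 higher and 5 lower in knockout thyroid, a median log2 difference of 0.03 and 0 called or under an unadjusted p of 0.05 (limma). Those with the smallest p were the chaperone partner Fkbp5 (490.3, 287.6 and 304.4 on heterozygous 1, 3 and 5 and 362.9, 473.1 and 578.0 on knockout 2, 4 and 6; log2 difference 0.39), Tsc22d3 (-0.14) and the phosphatase Dusp1 (0.09), with an adjusted p of 1.0 each (limma). Fkbp5 was highest on knockout 6, as Nfil3 was, and its heterozygous 1 value lay above knockout 2 and 4. Dusp1 was highest on heterozygous 1, at 3612 against 2129 to 2820.5 on the other arrays.

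Heat and cold responsive genes, read because body temperature also sets peripheral clocks, had 9 tested genes, 3 higher and 6 lower, a median log2 difference of -0.06 and 0 called or under an unadjusted p of 0.05 (limma). The cold-inducible RNA binding protein Cirbp read 624.6, 771.9 and 926.8 on heterozygous 1, 3 and 5 and 646.4, 662.2 and 698.0 on knockout 2, 4 and 6, a log2 difference of -0.19. Its heterozygous arrays ran in the order of Arntl, lowest on heterozygous 1 and highest on heterozygous 5. The heat shock genes Hspa1a (-0.37) and Hspa1b (-0.11) had the other small p, with an adjusted p of 1.0 each (limma).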
